A study of Mus musculus with 20 samples.

Results

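The genes described here are 41 enzymes and carriers of the urea cycle and of amino acid breakdown, chosen by symbol. A gene was measured where a probe set carried its symbol alone in the platform annotation, and where several did, the brightest on average over the 20 arrays was used. In this way 36 of the 41 genes were measured, out of 19938 genes on the array. Ass1 and Ahcy lie only on probe sets that also carry a second symbol (Gm5424 and Gm4737), and Gls2, Sds and Sdsl are unnamed here. All 36 measured genes were tested among 14190 genes bright enough for a test, and each of them lay above the 60th percentile of its array on all 20 arrays.

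Liver RNA of 20 male mice was measured on microarrays, 1 for each animal and 5 for each strain: NZO/Hl (NZO here), C57/Bl6 (B6), C3H, and 129P2/OlaHsd (129P2). NZO is a polygenic model of obesity and diabetes. All animals were 6 weeks old, and all had been kept from weaning at 21 days on a diet rich in fat, which gave 45% of its energy, with 20% from protein and 35% from carbohydrate, so there is no group on another diet. The arrays served a search for candidate genes in a study of the hydrolase Nudt19, and no animal had a knockdown. Values are on the log2 scale, where 1 unit stands for a 2-fold change in signal. Sequence differences between the strains under the probes were not tested.

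The liver removes the nitrogen of surplus amino acids as urea and burns or converts their carbon. Mitochondrial Cps1 and Otc and cytosolic Ass1, Asl and Arg1 form the urea cycle, Nags makes the activator of Cps1, and the carriers Slc25a13 and Slc25a15 move aspartate, ornithine and citrulline across the mitochondrial membrane. Transaminases pass amino groups on to glutamate, and dedicated routes then break down tyrosine, tryptophan, histidine, proline, the branched-chain amino acids and methionine. Many of these enzymes are known to be induced by fasting, glucagon, glucocorticoids or protein in the diet, and most are at their highest in hepatocytes.

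Markers of other cells moved with strain too. By limma's F-test all 7 endothelial markers differed over the strains at an adjusted p under 0.05, as 17% of all tested genes did, and their summed level, on the log2 scale, was 11.21 to 11.67 in NZO, below all of B6 (11.69 to 12.20) and 129P2 (11.74 to 12.09) and nearly all of C3H (11.62 to 12.08). Of 8 stellate cell markers 6 differed, with sums of 11.52 to 12.03 in NZO and 11.87 to 12.76 in B6, and of 8 Kupffer cell markers 4 did. Of 7 hepatocyte markers 1 differed, the cytochrome Cyp3a11, and their sums lay between 16.53 and 16.68 in all 20 animals. Of 11 markers of periportal hepatocytes, where urea synthesis is known to be highest, 6 differed, and of 14 pericentral ones 5 did. With the interquartile range of the array as a covariate, 5 endothelial, 5 stellate, 3 Kupffer, 7 periportal and 6 pericentral markers differed. The share of all tested genes was then 21.1%. Of the endothelial markers 6 rose with that range, and Lyve1 had its lowest mean in 129P2 (7.8, against 8.11 in NZO). The sums given here are not adjusted for the range. The pericentral sums were 15.21 to 15.34 in NZO, below every C3H (15.36 to 15.64) and every 129P2 animal (15.43 to 15.71), while B6 ran from 14.93 to 15.54. These sums lean on the brightest genes, Cyp2e1, which did not pass, and Cyp1a2. Of the 5 markers that differed without a covariate, Cyp1a2, Cyp27a1 and Nr1i3 had their lowest mean in NZO. Rhbg had its highest there (9.26, against 8.16 to 8.3 elsewhere), and Slc1a2 had its lowest in C3H, so the list did not move as 1. The periportal sums were 15.16 to 15.42 for NZO, 15.30 to 15.46 for B6, 15.12 to 15.21 for C3H and 15.12 to 15.44 for 129P2. Part of the low C3H sum reflects 1 gene, Hsd17b13 (mean 10.74 in C3H, against 12.32 to 12.45 elsewhere). Cyp2f2, the brightest of that list, did not pass. Fewer cells of a type and less RNA per cell cannot be told apart in whole liver, and the part of these shifts in the differences given below was not tested. Of the other lists, erythroid, pancreas and neutrophil markers had 1 gene each that differed (of 2, 4 and 4 tested). The neutrophil sum was 10.59 to 13.37 in NZO and 9.99 to 10.56 in B6. It mostly reflects 1 gene, Lcn2, the brightest of the list and the one that differed (mean 11.54 in NZO and 9.53 in B6). S100a9, Camp and Elane, the others tested, did not pass, so the sum does not stand for the list. Cftr, Cd3d, Cd79a, Ms4a1, S100a8, Ly6g, Retnlg, Ngp, Prss2, Adipoq, Lep, Umod and Kap, markers of bile duct, lymphocytes, neutrophils, pancreas, fat and kidney, were dim on all 20 arrays (under the 40th percentile of the array).

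Some of the catabolic enzymes differed between the strains, and those of the urea cycle itself did not pass the test. By limma's moderated F-test over the 4 strains, 10 of 36 members differed at an adjusted p under 0.05 (27.8%), beside 17% of all tested genes. They were Bckdhb, Amdhd1, Kmo, Gpt2, Bhmt, Hpd, Aldh4a1, Gnmt, Hal and Tdo2. The spread of values also differed between arrays, so each comparison was made again with the interquartile range of the array as a covariate. The same 10 members then passed, with Cbs and Bckdha in addition, which made 12 (33.3%, beside 21.1% of all genes). The members nearest the threshold without the covariate were Tdo2, just inside (adjusted p = 0.0493), and Gpt, just outside (0.0533). The standard deviation of a member within strains ran from 0.0931 (Hpd) to 0.418 (Got1), with a median of 0.174, so small differences could be seen in Hpd that would not pass in Got1.

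**Figure D1:**
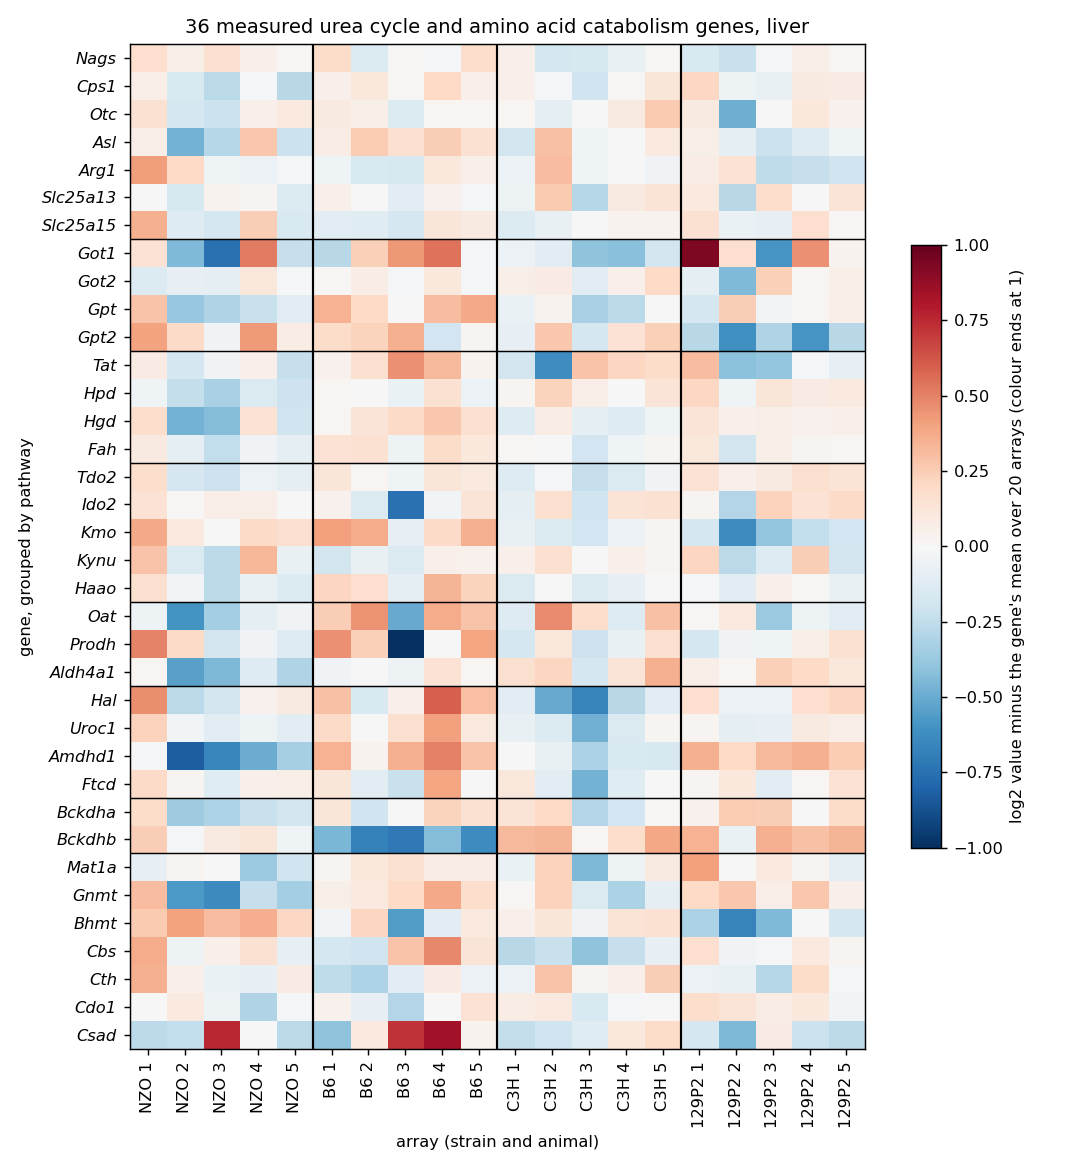
Each row is 1 of the 36 measured genes, grouped by pathway with black lines between groups, and each column is 1 animal, 5 per strain. Colour gives the log2 value minus the mean of that gene over 20 arrays; blue runs through the 5 B6 animals for Bckdhb, through the 5 NZO animals for Amdhd1 (NZO 1 nearly white) and through the 5 129P2 animals for Gpt2, and the urea cycle rows at the top show no such block.

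The deepest difference belonged to Bckdhb, the E1 beta subunit of the branched-chain ketoacid dehydrogenase, the mitochondrial complex that commits leucine, isoleucine and valine to breakdown. The 5 B6 animals read 9.60, 9.38, 9.34, 9.62 and 9.43. Those of NZO read 10.31, 10.04, 10.14, 10.18 and 10.01, those of C3H 10.38, 10.39, 10.07, 10.23 and 10.44, and those of 129P2 10.41, 9.99, 10.41, 10.35 and 10.40. No B6 animal reached the lowest animal of any other strain. The differences from B6 were 0.66 in NZO (95% interval 0.46 to 0.86), 0.83 in C3H (0.63 to 1.03) and 0.84 in 129P2 (0.64 to 1.03), with 1 SE of 0.0962 for all (limma's adjusted p = 5.64e-05, 3.47e-06 and 3.21e-06). With array spread as a covariate the same differences were 0.79, 0.99 and 0.99. Bckdhb was thus set apart in B6, meaning past all 3 comparisons of that strain in 1 direction, which held for 1.44% of all tested genes (1.36% with the covariate). It stayed past the threshold in all 32 alternative fits, also against a minimum fold of 1.2. The highest adjusted p there was 0.0163 for NZO.

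The partner subunit did not show this pattern. Bckdha, the E1 alpha subunit, had means of 10.30 ± 0.21 for NZO, 10.54 ± 0.17 for B6, 10.45 ± 0.21 for C3H and 10.63 ± 0.12 for 129P2 (SD, n = 5). Its F-test did not pass without the covariate (adjusted p = 0.16) and passed with it (0.0376), when NZO lay below 129P2 by a log2 difference of -0.35 (adjusted p = 0.0104, against -0.33 and 0.0755 without). Other parts of the complex and its control are named as its partners, after their values were seen. Of these, Dbt, the E2 core, Dld, the E3 subunit, and Bckdk, the kinase that shuts the complex off, did not pass either F-test over the strains (adjusted p = 0.745, 0.928 and 0.717, and 0.541, 0.133 and 0.547 with the covariate). Ppm1k, the phosphatase that switches the complex on, was highest in 129P2 (10.36 ± 0.16, where NZO had 9.83 ± 0.26, B6 had 9.98 ± 0.27 and C3H had 9.93 ± 0.24; SD, n = 5). NZO minus 129P2 was -0.54 ± 0.14 (SE; adjusted p = 0.0139), and with the covariate 129P2 exceeded all 3 other strains.

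Gpt2, the mitochondrial alanine transaminase, was lower in 129P2 than in each other strain. Its 5 values in 129P2 were 10.50, 10.16, 10.47, 10.18 and 10.50. In NZO they were 11.17, 10.96, 10.73, 11.20 and 10.85, in B6 10.96, 10.997, 11.13, 10.58 and 10.80, and in C3H 10.69, 11.04, 10.60, 10.92 and 11.01. The highest 129P2 value lay below the lowest of every other strain, while NZO, B6 and C3H overlapped widely. NZO exceeded 129P2 by 0.62 (95% interval 0.37 to 0.87) and C3H did so by 0.49 (0.24 to 0.74), and 129P2 minus B6 was -0.53 (-0.78 to -0.29), all with SE 0.119 (limma's adjusted p = 0.00114, 0.014 and 0.00611). Gpt2 was set apart in 129P2 in both fits, as 1.14% of all tested genes were without the covariate and 1.55% with it. With the covariate the difference from B6 was smaller, -0.40 (adjusted p = 0.0469). No member was set apart in C3H, where 0.951% of all genes were, or 1.13% with the covariate.

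The other transaminases of the list showed less. Gpt, the cytosolic alanine transaminase, was lower in NZO than in B6 (-0.39 ± 0.12, SE; adjusted p = 0.0318) and lower in C3H than in B6 (-0.37, adjusted p = 0.0498), with values of 9.62 to 10.29 in NZO, 9.68 to 10.04 in C3H and 9.99 to 10.38 in B6 that overlapped. Both calls were lost with the covariate (adjusted p = 0.119 and 0.262), and the first was also lost without B6 1, 4 or 5 (0.0716, 0.0785 and 0.0797) or NZO 2, 3, 4 or 5 (0.101, 0.0909, 0.0677 and 0.0527). The second was less stable, lost in 14 of the 20 fits that left out 1 animal (adjusted p up to 0.14) and in 20 of all 32 alternative fits. The aspartate transaminases Got1 and Got2 passed no comparison in either fit. Got1 spread from 10.67 to 12.35 over the 20 animals, with an SD of 0.56 in 129P2 and 0.50 in NZO.

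**Figure D2:**
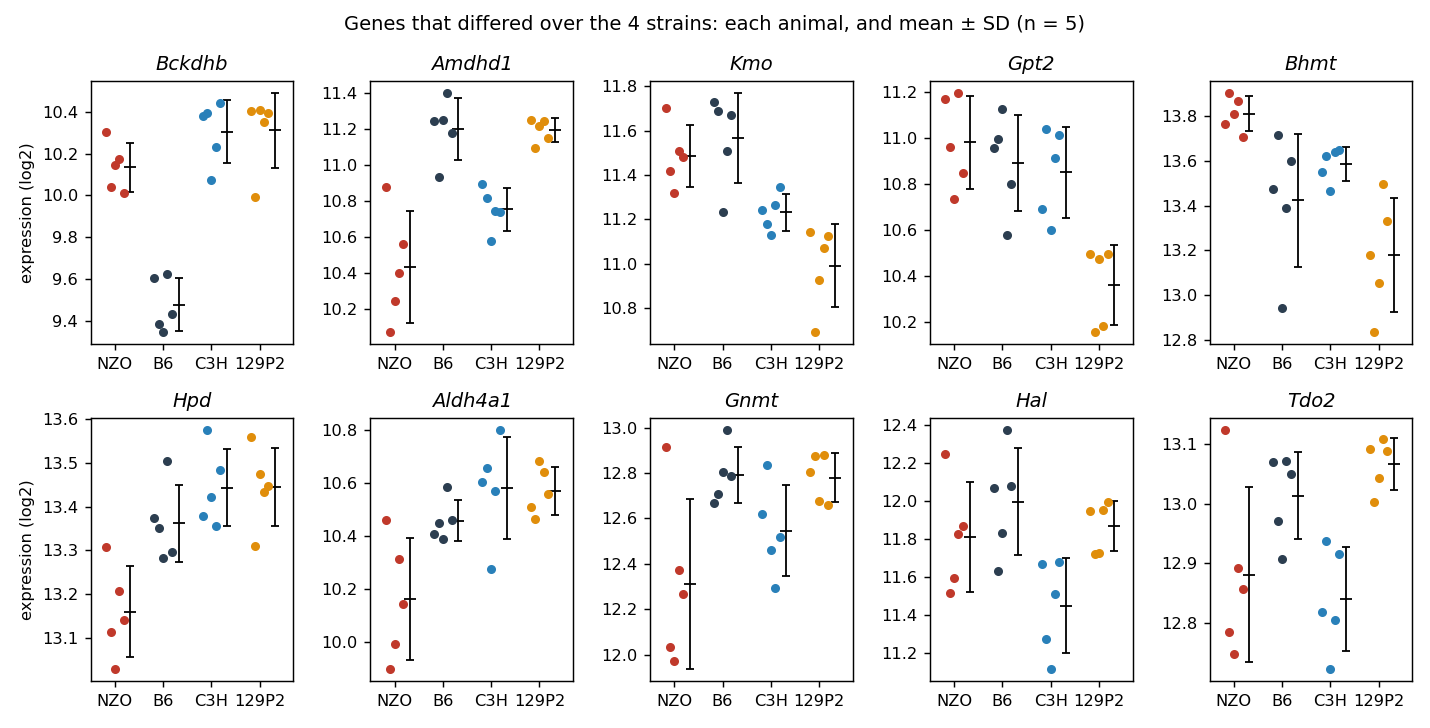
Each panel is 1 of the 10 genes that differed over the 4 strains, with the log2 expression of each animal as a point (each panel has its own axis) and the mean ± SD of 5 animals beside it. The B6 points of Bckdhb and the 129P2 points of Gpt2 stand clear of all others, and in Amdhd1 the NZO points lie between 10.07 and 10.88.

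Histidine breakdown held the largest NZO difference among the members. Hal removes ammonia from histidine, Uroc1 and Amdhd1 carry the product on, and Ftcd passes the last carbon to folate. Amdhd1, imidazolonepropionase, read 10.88, 10.07, 10.24, 10.40 and 10.56 in the 5 NZO animals and 11.24, 10.93, 11.25, 11.40 and 11.17 in B6. It read 10.89, 10.82, 10.57, 10.74 and 10.73 in C3H and 11.25, 11.09, 11.22, 11.24 and 11.15 in 129P2. All NZO and all C3H values lay below all B6 and 129P2 values, the nearest to each other being NZO 1 (10.88), C3H 1 (10.89) and B6 2 (10.93). NZO minus B6 was -0.77 (95% interval -1.01 to -0.53) and NZO minus 129P2 -0.76 (-1.001 to -0.522), so the NZO signal was 58.7% and 59% of theirs (limma's adjusted p = 8.38e-05 and 9.11e-05). C3H was between, with -0.45 from B6 and -0.44 from 129P2 (adjusted p = 0.0175 and 0.0255), and NZO minus C3H was -0.32 (adjusted p = 0.116).

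Amdhd1 followed array spread, and 2 of its 6 comparisons changed sides with the covariate. NZO minus C3H became -0.36 (adjusted p = 0.00447), which set Amdhd1 apart in NZO, as 2.75% of all tested genes were in that fit. C3H minus B6 became -0.24 (adjusted p = 0.146). That call was also lost without B6 4 (0.0628) or C3H 3 (0.0549). C3H minus 129P2 kept its size with the covariate (-0.43, adjusted p = 0.00128), but without it the call was lost in 6 of 20 fits that left out 1 animal (without C3H 3, 4 or 5 or 129P2 1, 3 or 4; adjusted p 0.0555 to 0.0751) and with equal array medians (0.0765). The differences from B6 and 129P2 in NZO held in all 32 alternative fits, the highest adjusted p being 0.00971 and 0.0107.

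Hal, histidine ammonia-lyase, was lower in C3H than in B6. C3H animals read 11.67, 11.27, 11.11, 11.51 and 11.68, and B6 animals 12.07, 11.63, 11.83, 12.37 and 12.08. NZO read 12.25, 11.51, 11.59, 11.82 and 11.87, and 129P2 11.95, 11.72, 11.73, 11.95 and 11.99. C3H and B6 overlapped at 1 end only, where the lowest B6 animal (11.63) was under the 2 highest of C3H. The difference was -0.55 ± 0.14 (SE; adjusted p = 0.0173), and -0.32 with the covariate (adjusted p = 0.173). It was also lost without B6 4 (0.0666) or C3H 3 (0.0618). C3H minus 129P2 did the opposite, at -0.42 (adjusted p = 0.0995) without the covariate and -0.41 (0.0274) with it. Uroc1, urocanase, was lower in C3H than in B6 by less than Hal and did not pass the F-test (adjusted p = 0.0889). Its difference was -0.33 (adjusted p = 0.0331; -0.19 and 0.228 with the covariate), and the call was lost without B6 1, 3 or 4 or C3H 3 or 4 (adjusted p 0.0609 to 0.121). Ftcd passed no comparison. C3H 3 has the narrowest array (interquartile range 2.171) and the lowest C3H value in each of the 4 histidine genes.

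Hal and Amdhd1 are next to each other on chromosome 10 in the GRCm38.p6 gene order and are read from opposite strands. They are the only members measured here that are neighbours. Lta4h, the neighbour of Hal on its other side and not a member, was also lower in C3H than in B6. Its difference was -0.49 (limma's adjusted p = 0.00168, and 0.0142 with the covariate). Elk3, Cdk17 and Ntn4, further out, did not pass in that comparison. Bases before the starts of Hal and Amdhd1 are shown because both genes are lower in C3H than in B6 without the covariate. Those of Bckdhb and Gpt2 are shown because these are the genes that set a strain apart. Sequences are RefSeq's, for GRCm38.p6, a reference genome and not the sequence of these animals. They run 5′ to 3′ on the gene's strand, from 250 bases before the start to the first base that the annotation counts as part of the gene. Capitals mark matches, on either strand, to the TATA box TATAAA, to the sequence CCAAT, to the C/EBP palindrome TTGCNNAA, or to the glucocorticoid receptor half-site, which reads TGTTCT.
Bckdhb, chr9:83924887-83925110, plus strand, 224 bases: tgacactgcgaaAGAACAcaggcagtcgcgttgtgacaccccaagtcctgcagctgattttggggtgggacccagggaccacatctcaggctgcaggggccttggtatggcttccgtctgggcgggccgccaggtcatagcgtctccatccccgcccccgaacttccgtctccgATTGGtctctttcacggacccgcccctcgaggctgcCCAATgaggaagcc
Gpt2, chr8:85492326-85492575, plus strand, 250 bases: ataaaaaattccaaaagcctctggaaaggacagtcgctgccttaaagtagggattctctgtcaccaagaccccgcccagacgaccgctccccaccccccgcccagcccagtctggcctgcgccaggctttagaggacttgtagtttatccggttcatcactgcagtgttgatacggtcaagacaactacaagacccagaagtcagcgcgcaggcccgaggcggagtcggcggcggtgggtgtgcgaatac
Hal, chr10:93488518-93488767, plus strand, 250 bases: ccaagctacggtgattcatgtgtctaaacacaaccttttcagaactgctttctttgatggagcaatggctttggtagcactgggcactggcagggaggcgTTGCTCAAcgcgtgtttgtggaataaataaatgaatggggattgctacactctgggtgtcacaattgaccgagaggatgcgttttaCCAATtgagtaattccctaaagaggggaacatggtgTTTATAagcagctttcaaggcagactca
Amdhd1, chr10:93540112-93540283, minus strand, 172 bases: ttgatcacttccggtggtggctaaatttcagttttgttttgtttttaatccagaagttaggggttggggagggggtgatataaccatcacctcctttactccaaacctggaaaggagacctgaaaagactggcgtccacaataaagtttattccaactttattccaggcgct

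Hal held a TATAAA 28 bases before its start, a CCAAT at 64 and a TTGCNNAA at 150. Bckdhb held CCAAT at 76 (on the other strand, printed as ATTGG) and 40 and a TGTTCT at 238 (on the other strand, printed as AGAACA). The windows of Gpt2 and Amdhd1 held none of these, and none of the 4 held TGACG (a cAMP response half-site), AAGTCCA (an HNF4 core) or TGTTTAC (a FOXA core), which were searched too. Only 172 bases were searched for Amdhd1 and 224 for Bckdhb, without those nearest the start, which the annotation counts as part of the gene. A motif there would have been missed, and the shares that follow are over the full 250 bases. Over the 250 bases before each of 32851 RefSeq starts, 12.4% held TATAAA, 33.8% CCAAT, 9.56% TTGCNNAA, 16.1% TGTTCT, 17.8% TGACG, 3.36% AAGTCCA and 3.17% TGTTTAC. Promoters of 27 of the 36 measured members were in the table, of which 14 held CCAAT, 5 TATAAA and 2 TTGCNNAA. A match is a description of letters and not of a bound site.

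Kmo, kynurenine 3-monooxygenase of the tryptophan route, had its lowest values in 129P2, which read 11.14, 10.69, 10.93, 11.07 and 11.13. C3H read 11.24, 11.18, 11.13, 11.26 and 11.35, NZO 11.70, 11.42, 11.32, 11.51 and 11.48, and B6 11.73, 11.69, 11.23, 11.51 and 11.67. The 129P2 and NZO animals did not overlap, nor did those of 129P2 and B6, whereas 129P2 and C3H crossed at 11.13 to 11.14. NZO minus 129P2 was 0.49 (95% interval 0.28 to 0.70) and 129P2 minus B6 was -0.58 (-0.79 to -0.36), both with SE 0.101 (limma's adjusted p = 0.00218 and 0.000641). Both held with the covariate (0.48 and -0.50). C3H minus B6 was -0.34 (adjusted p = 0.0431) and was lost with it (-0.25, 0.208), as well as in 11 of the 20 fits that left out 1 animal.

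Tdo2, tryptophan 2,3-dioxygenase, the entry to the same route, varied little within strains. Its values were 13.09, 13.00, 13.04, 13.11 and 13.09 in 129P2 and 12.82, 12.94, 12.72, 12.80 and 12.92 in C3H, which did not overlap. NZO read 13.12, 12.78, 12.75, 12.89 and 12.86, and B6 read 13.07, 12.97, 12.91, 13.07 and 13.05. The F-test call at 0.0493 was lost in 21 of 30 alternative fits, and without the covariate no pair of strains passed. With the covariate, C3H minus 129P2 was -0.22 (adjusted p = 0.00964) and NZO minus 129P2 -0.20 (0.0132). Ido2, Kynu and Haao, the other enzymes of this route, passed no comparison in either fit.

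Of the 4 tyrosine enzymes only Hpd, 4-hydroxyphenylpyruvate dioxygenase, passed the F-test. It was lower in NZO, with 13.31, 13.11, 13.03, 13.21 and 13.14. C3H read 13.38, 13.58, 13.42, 13.36 and 13.48 and 129P2 13.56, 13.31, 13.47, 13.43 and 13.45, and neither crossed the NZO values, though the highest NZO and the lowest 129P2 value were both 13.31, while B6 did, with 13.38, 13.35, 13.28, 13.50 and 13.30. The differences were small but steady: -0.28 from C3H and -0.29 from 129P2, an SE of 0.0653 each, so that the NZO signal was 82.2% and 82.1% of theirs (limma's adjusted p = 0.00701 and 0.00568). They were -0.30 and -0.30 with the covariate, and in the 20 fits that left out 1 animal the adjusted p rose to at most 0.0282 and 0.0225. NZO against B6 did not pass in either fit. Tat, the tyrosine transaminase, and Fah, the last enzyme of the route, passed nowhere, and Hgd, homogentisate dioxygenase, passed only with the covariate, in NZO minus 129P2 (-0.24, adjusted p = 0.0457).

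Aldh4a1, an enzyme of proline and hydroxyproline breakdown, was also lower in NZO. NZO animals read 10.46, 9.90, 9.99, 10.31 and 10.14. C3H animals read 10.61, 10.66, 10.28, 10.57 and 10.80, those of 129P2 10.51, 10.46, 10.68, 10.64 and 10.56, and those of B6 10.41, 10.45, 10.39, 10.59 and 10.46. NZO and 129P2 touched at 10.46 without crossing, and 1 C3H animal (10.28) lay inside the NZO range. NZO minus C3H was -0.42 and NZO minus 129P2 -0.41 (SE 0.103; adjusted p = 0.0116 and 0.0115). With the covariate these were -0.45 and -0.43 with smaller errors (SE 0.0665 and 0.0663), and C3H and 129P2 then also exceeded B6, by 0.31 (adjusted p = 0.0147) and 0.29 (0.0202). The first difference was lost with equal array medians (0.0554) or with only both strains in the fit (0.0564). Prodh, which opens proline breakdown, and Oat, the ornithine transaminase, passed no comparison. In both, B6 3 stood far below the other B6 animals, at 9.10 and 10.49, against 10.30 to 10.76 and 11.24 to 11.44.

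In the methionine cycle, opposite changes were seen in NZO. Bhmt, which remethylates homocysteine with betaine, was higher: 13.77, 13.90, 13.81, 13.87 and 13.71 in NZO, against 13.18, 12.84, 13.05, 13.50 and 13.33 in 129P2. B6 read 13.47, 13.71, 12.94, 13.39 and 13.60, and C3H 13.55, 13.62, 13.47, 13.64 and 13.65. NZO lay above all 129P2 and all C3H animals, and overlapped B6 by 1 animal (13.71). NZO minus 129P2 was 0.63 (95% interval 0.39 to 0.87; adjusted p = 0.000819) and NZO minus B6 0.39 (0.0352), the latter lost with the covariate (0.39, adjusted p = 0.0695) and without B6 3 (0.27, adjusted p = 0.106), B6 4 (0.0785) or NZO 2, 3 or 4 (0.0866, 0.0666 and 0.069). NZO minus C3H was 0.225 and did not pass. C3H minus 129P2 was 0.40 (adjusted p = 0.044), a call lost in 13 of the 20 fits that left out 1 animal. The other probe sets of Bhmt gave 0.60 and 0.50 for NZO minus 129P2.

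Bhmt2, a close copy of Bhmt that uses S-methylmethionine, is its neighbour on chromosome 13, and its probe set may share signal with Bhmt. It was set apart in NZO, higher by 0.44 than B6, 0.34 than C3H and 0.42 than 129P2 (SE 0.0966; adjusted p = 0.00364, 0.0343 and 0.00586). Genes set apart in NZO without the covariate made up 2.19% of all tested genes.

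Gnmt, which consumes S-adenosylmethionine to methylate glycine, was lower in NZO. NZO read 12.91, 12.03, 11.97, 12.37 and 12.27, so that NZO 1 stood above the other NZO animals and inside the range of B6. B6 read 12.67, 12.71, 12.80, 12.99 and 12.79, 129P2 12.81, 12.88, 12.68, 12.88 and 12.66, and C3H 12.62, 12.84, 12.46, 12.29 and 12.52. NZO minus B6 was -0.48 and NZO minus 129P2 -0.47 (SE 0.13; adjusted p = 0.0193 and 0.0237). With the covariate they were -0.31 (0.103) and -0.49 (0.00327). Both calls were lost without NZO 2 (adjusted p = 0.0696 and 0.0776) or NZO 3 (0.071 and 0.0866), the first also without B6 4 (0.0656), and the second without NZO 5, 129P2 2 or 129P2 4 (0.0519, 0.052 and 0.0557). Cbs, the first enzyme of transsulfuration, passed only with the covariate, where NZO exceeded C3H by 0.29 (adjusted p = 0.0315); NZO animals read 11.53 to 11.98 and C3H animals 11.21 to 11.53. Mat1a, Cth, Cdo1 and Csad, which make S-adenosylmethionine, cysteine and the precursors of taurine, passed no comparison in either fit.

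The urea cycle enzymes and carriers held no call between strains without the covariate. Of the 7 measured, 0 passed limma's F-test (lowest adjusted p 0.16), beside 17% of all tested genes. With the covariate 0 passed too, beside 21.1%. A list of 7 genes is too short to tell 0 from those shares. In the F-test without the covariate 1 of them, Cps1, had an unadjusted p under 0.05 (0.0476). Of the 42 comparisons between strains without the covariate, 0 passed, where 5.03% to 10.3% of all tested genes did. An unadjusted p under 0.05 was seen in 4: NZO minus B6 and NZO minus 129P2 in Cps1, and NZO minus B6 and 129P2 minus B6 in Asl. How many of all genes fell under that limit was not counted. The log2 differences ran from -0.30 to 0.19, with an SE of 0.0752 to 0.113. Their 95% intervals reached from -0.54 to 0.40, so none included a 2-fold difference. Smaller differences lie within those limits.

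Cps1, carbamoyl phosphate synthetase, read 13.66, 13.44, 13.32, 13.58 and 13.31 in the NZO animals and 13.64, 13.69, 13.60, 13.79 and 13.64 in those of B6. C3H read 13.64, 13.58, 13.39, 13.60 and 13.72, and 129P2 13.79, 13.54, 13.52, 13.68 and 13.67. The lowest values were NZO 3 and NZO 5, and all groups overlapped. NZO minus B6 was -0.21 (adjusted p = 0.0759; -0.13 and 0.294 with the covariate) and NZO minus 129P2 -0.18 (0.161; -0.19 and 0.0452 with the covariate), the latter the only urea cycle comparison that passed in either fit. Asl, argininosuccinate lyase, had means of 10.59 ± 0.30 for NZO, 10.89 ± 0.07 for B6, 10.75 ± 0.18 for C3H and 10.63 ± 0.10 for 129P2 (SD, n = 5). The strain means of the others lay closer together, at 9.66 to 9.82 for Nags, 12.57 to 12.68 for Otc, 12.10 to 12.29 for Arg1, and 10.88 to 10.96 for each of Slc25a13 and Slc25a15.

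**Figure D3:**
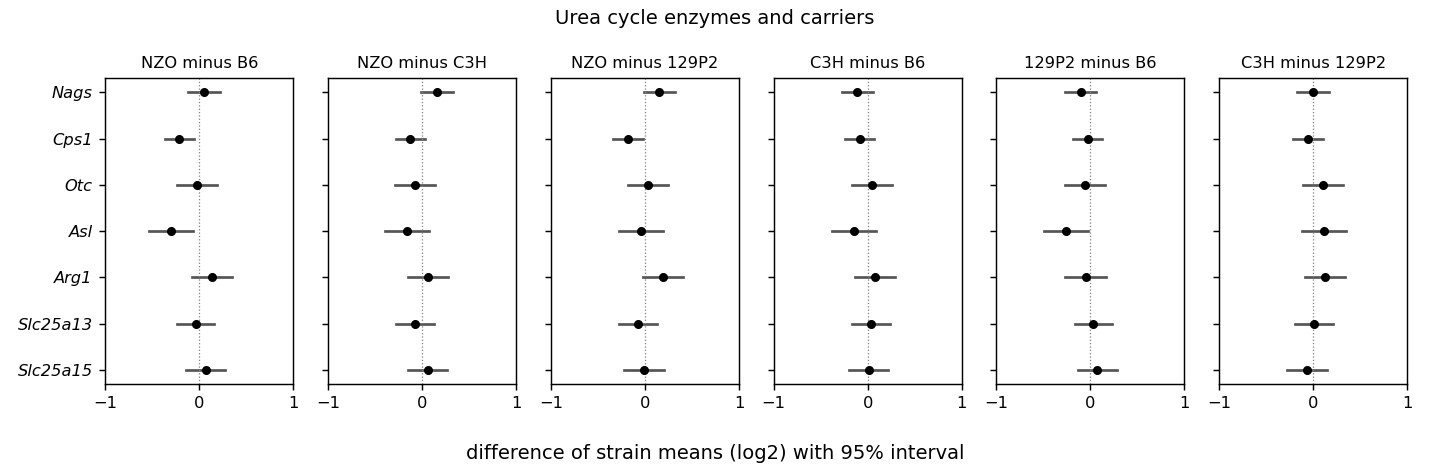
Each panel is 1 comparison of 2 strains, with the difference of their means (log2, points) and its 95% interval (bars) for the 7 measured urea cycle genes, without the covariate. All 42 intervals stay within -0.54 and 0.40, and 4 of them leave out 0.

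Counted by comparison, NZO differed from B6 in 5 members, where 10.3% of all tested genes were called. Of these, 2 were higher in NZO (3.63% of all genes) and 3 higher in B6 (6.64%). Leaving out 1 animal moved this count to 14 (without NZO 1) or to 2 (without NZO 2, NZO 3 or B6 4). NZO differed from C3H in 2 (6.6% of all genes), both higher in C3H (3.09%), while 3.51% of all genes were higher in NZO. NZO differed from 129P2 in 7 (8.9%), with 3 higher in NZO (4.29%) and 4 higher in 129P2 (4.61%). C3H differed from B6 in 6 (8.05%), with 1 higher in C3H (2.71%) and 5 higher in B6 (5.34%), a count that fell to 1 without B6 4 or C3H 3 and to 3 without C3H 4, and was 8 without NZO 1. Between 129P2 and B6, 3 differed (6.19%), with 1 higher in 129P2 (2.11%) and 2 higher in B6 (4.08%). Between C3H and 129P2, 3 differed (5.03%), with 2 higher in C3H (2.25%) and 1 higher in 129P2 (2.78%), a count of 1 without C3H 3, 4 or 5 or 129P2 1 or 3. The NZO and C3H count was 4 without NZO 1. As shares of the 36 members these were 13.9%, 5.56%, 19.4%, 16.7%, 8.33% and 8.33%. Comparisons that share a strain share its animals.

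Array spread moved these counts. B6 arrays had the widest mean interquartile range, 2.43 ± 0.057, followed by 2.33 ± 0.111 for NZO, 2.32 ± 0.073 for 129P2 and 2.31 ± 0.088 for C3H (SD, n = 5). It ran from 2.171 in C3H 3 to 2.495 in NZO 1. Of the 36 members 18 followed it (50%, beside 49% of all tested genes), all 18 upward, whereas among all genes 3772 followed it upward and 3176 downward. The histidine genes Hal, Amdhd1 and Uroc1 had slopes of 1.95, 1.77 and 1.23 log2 units per unit of spread, Gnmt 1.72 and Aldh4a1 1.59, and the median over the members was 0.90, against 0.27 over all genes. All 36 members lie above the 60th percentile of every array, whereas the tested genes include dimmer ones. No comparison was made with genes of like brightness, so the direction is not shown to be particular to the members. Of 58 other amino acid catabolism genes 28 followed the spread, 27 of them upward (median slope 0.97). Members whose values did not follow it included Bhmt (slope 0.03) and Cdo1 (-0.02). What sets the spread of an array was not tested.

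**Figure D4:**
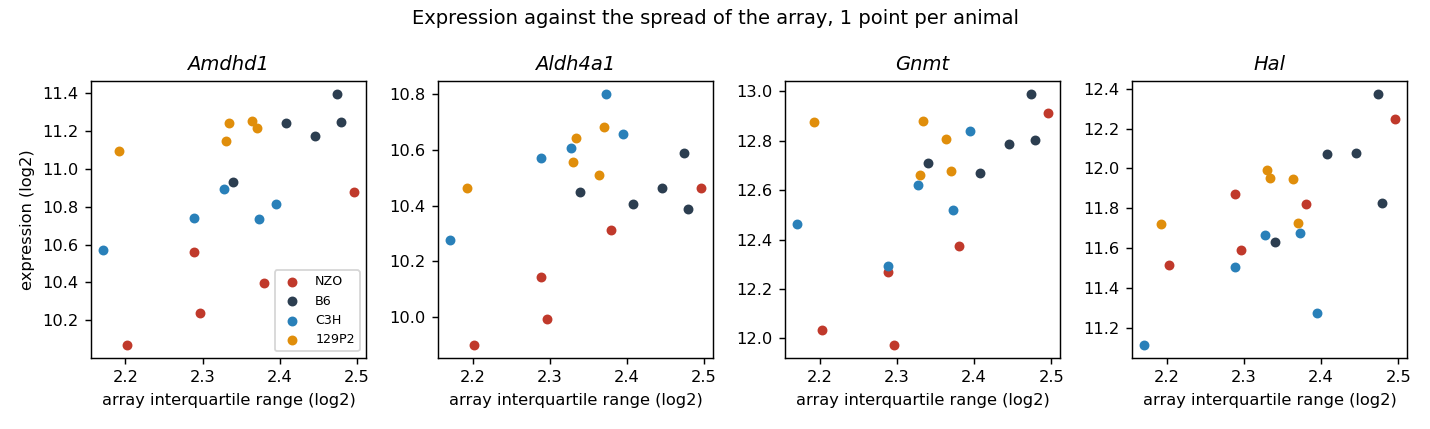
Each point is 1 of 20 animals, with the interquartile range of its array (log2) on the horizontal axis and the log2 expression of the gene on the vertical axis, coloured by strain. The fitted slopes within strains are upward in all 4 genes, with single animals against them (C3H 2, at 2.395 the widest C3H array, has a Hal of 11.27), and B6 animals lie between 2.34 and 2.479, to the left of NZO 1 at 2.495.

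With the covariate the comparisons with B6 held fewer or different calls, and those among the other strains more. NZO minus B6 held 2 member calls (1 in each direction; 9.71% of all genes), C3H minus B6 held 2 (both higher in C3H; 5.95%) and 129P2 minus B6 held 4 (2 in each direction; 6.62%). NZO minus C3H held 4 (1 higher and 3 lower in NZO; 9.58%), NZO minus 129P2 held 11 (3 higher, 8 lower; 13.6%) and C3H minus 129P2 held 5 (2 higher, 3 lower; 7.93%). Of 216 member comparisons, 26 were called without the covariate and 28 with it, 18 of them in both. The 8 called only without it were all in comparisons with B6. The 10 called only with it were those of Cps1, Hgd, Tdo2, Bckdha and Cbs named above, NZO minus C3H in Amdhd1, C3H minus 129P2 in Hal, and C3H and 129P2 minus B6 in Aldh4a1.

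**Figure D5:**
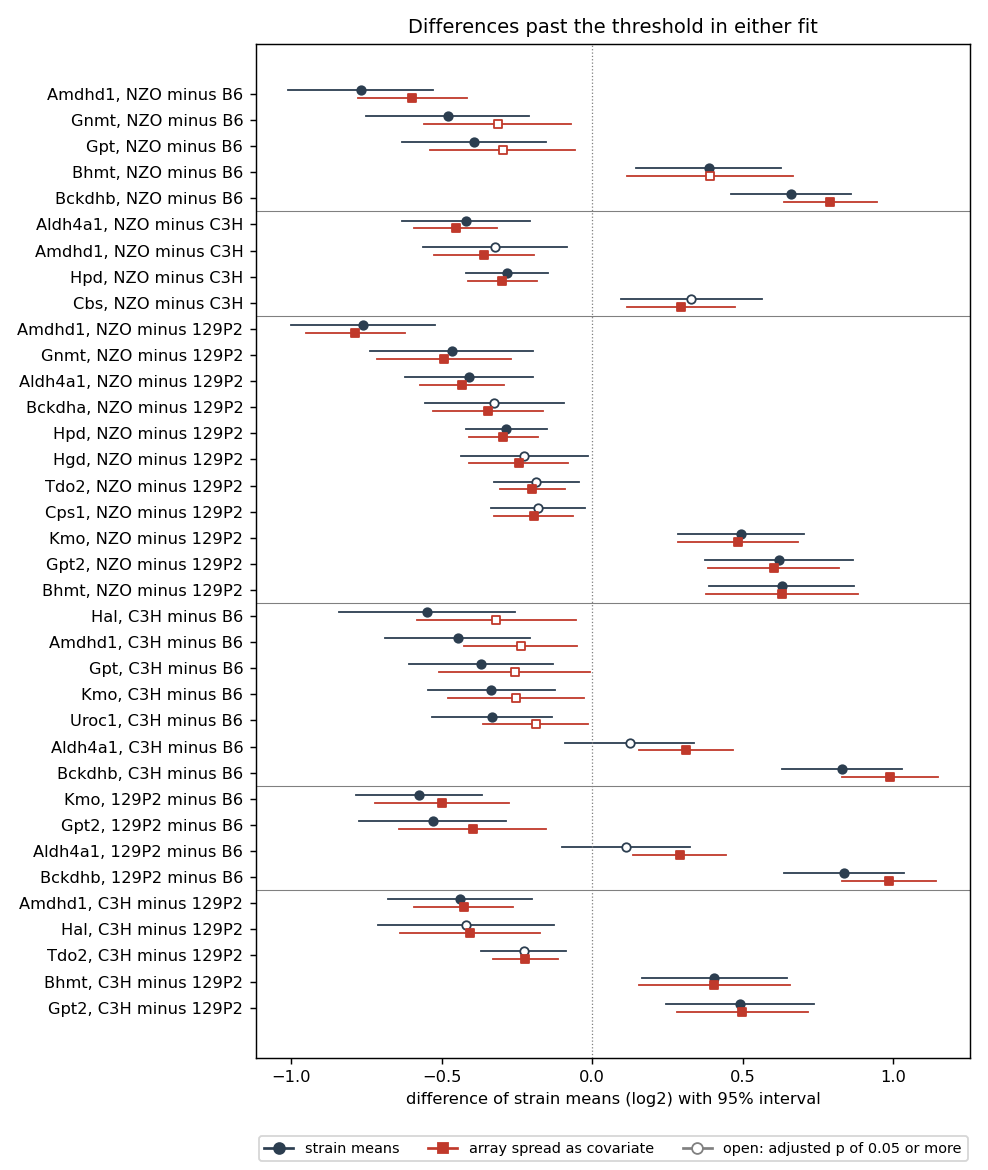
Each row is 1 gene and 1 comparison called in either fit, with the difference of strain means (log2) and its 95% interval without (dark circles) and with (red squares) array spread as a covariate; open symbols have an adjusted p of 0.05 or more. Bckdhb, Gpt2, Hpd and Kmo against 129P2 stay filled in both fits, and 5 of the 7 listed C3H minus B6 rows are filled only without the covariate.

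The members' order over the strains shifted as well. Without the covariate B6 had the highest mean in 16 of 36 members (44.4%, beside 29% of all tested genes) and NZO the lowest in 15 (41.7%, beside 23.7%). The median difference over the 36 members was -0.16 for NZO minus B6 and -0.10 for C3H minus B6, where the medians over all genes were 0.01 and 0.00. With the covariate these medians were -0.04 and 0.00, B6 was highest in 9 members (25%) and 129P2 in 13 (36.1%), while NZO was still lowest in 14 (38.9%, beside 24.3%).

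Other genes of amino acid breakdown were examined as a list of 66, of which 58 were tested. Of these, 18 differed over the strains (31%, beside 17% of all genes), and 27 with the covariate (46.6%, beside 21.1%). NZO differed from B6 in 14 (24.1%, beside 10.3% of all genes), with 4 higher and 10 lower in NZO, but 6 and 6 with the covariate. It differed from C3H in 8 (13.8%, beside 6.6%; 3 higher, 5 lower) and from 129P2 in 12 (20.7%, beside 8.9%; 4 higher, 8 lower), and with the covariate in 11 (3 higher, 8 lower) and 15 (5 higher, 10 lower). Pccb, the beta subunit of propionyl-CoA carboxylase downstream of valine, isoleucine and methionine, was lowest in NZO, with a mean of 9.73 ± 0.15, where B6 had 10.35 ± 0.13, C3H had 10.08 ± 0.21 and 129P2 had 10.53 ± 0.12 (SD, n = 5). Its differences were -0.62, -0.35 and -0.80 (SE 0.10; adjusted p = 0.000191, 0.036 and 8.05e-06). Qdpr, which regenerates the cofactor of phenylalanine hydroxylase, was lowest in NZO too (-0.77, -0.39 and -0.41 from B6, C3H and 129P2).

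Kyat3, a kynurenine aminotransferase, was set apart in 129P2, at 9.41 ± 0.31 against 10.10 ± 0.29 in NZO, 10.60 ± 0.28 in B6 and 10.91 ± 0.11 in C3H (SD, n = 5). The difference of C3H from 129P2 was 1.51 ± 0.15 (SE; adjusted p = 3.48e-07). Acmsd, which turns the route away from NAD synthesis, was lower in NZO than in B6 (-0.71, adjusted p = 0.043, lost with the covariate) and 129P2 (-0.75, 0.0332). It did not pass limma's F-test over the strains (adjusted p = 0.0539, and 0.0601 with the covariate). Qprt, on the NAD branch, was lower in NZO than in B6 (-0.50) and C3H (-0.51). Agxt, which clears glyoxylate, was set apart in C3H, where it was highest (NZO minus C3H -0.86, adjusted p = 0.000166). B6 was set apart by lower Amt, of the glycine cleavage system (C3H minus B6 0.34), and lower Mtap, of methionine salvage (NZO minus B6 0.38), and by higher Sardh, of sarcosine breakdown (NZO minus B6 -0.51).

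Further genes named by the same rule were Kyat1, a further kynurenine aminotransferase (0.33 against C3H and 0.31 against 129P2), and Aldh18a1, of proline synthesis (0.35 against each of the same strains), both higher in NZO (limma's adjusted p = 0.0269, 0.0334, 0.0159 and 0.0131 in that order). Aspg, an asparaginase, was lower in NZO than in 129P2 (-0.65, adjusted p = 0.00235).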

How the data were processed

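The deposited values are log2 expression values per probe set, made by the authors with RMA in Affymetrix Expression Console, per the submitters' processing notes; versions and the genome build are not given in the sources used here. Per the labels, 150 ng of RNA with an RNA integrity number above 8 was labelled for each array; no scan date or batch is in the labels. Their number, 5 arrays a strain, limits the precision, and each array is taken as 1 animal. Nothing was renormalized in the values reported.

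Of 35556 probe sets, 21789 carry 1 gene symbol in the platform annotation, 1621 carry several and 12146 are unnamed here. For a gene with several probe sets (999 genes) the brightest was used. Genes above the 40th percentile of the array on at least 5 arrays were tested. limma 3.58.1 (R 4.3.3) fitted 1 mean per strain over 20 arrays, with variances moderated by an intensity trend (16 residual and 6.37 prior degrees of freedom), an F-test over the 4 strains and all 6 pairs. P-values were adjusted by Benjamini-Hochberg over 14190 genes, with a threshold of 0.05. The same fit with the interquartile range of each array as a covariate, and the alternatives in the closing section, followed. The fit was tested on simulated data.

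Every member may be named. Of the wider lists, genes set apart in 1 strain and up to 3 largest called differences each way per NZO comparison are named. The members and lists were chosen with earlier results of these data known, so their counts are not independent support. Promoter sequences are RefSeq's for GRCm38.p6, with 27 members matched. Figures were drawn with matplotlib 3.10.9.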

Additional observations from a re-analysis of the deposited data

Results flagged for a closer look

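Among 144 groups of 5 animals (36 members in 4 strains), 8 held an animal whose gap to the nearest of the others, divided by the range of the group, was above Dixon's 95% critical value of 0.71. Chance gives about 1 such group in 20. Bckdhb read 9.99 in 129P2 2, below the other 129P2 animals (10.35 or more), and Otc read 12.13 in the same animal, whose array spread was 2.192, the next read being 12.63. Prodh read 9.10 and Oat 10.49 in B6 3, below the other B6 animals, whose nearest values were 10.30 and 11.24, with an array spread of 2.479. Uroc1 read 11.04 in NZO 1, which has the widest array (2.495), above 10.78 in the nearest NZO animal. Csad read 9.52 in NZO 3, far above the next value, 8.76. Hgd read 12.44 in 129P2 1 and Arg1 read 12.50 in C3H 2, where the nearest animals read 12.37 and 12.20. What sets these animals apart was not tested.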

How the results depend on the processing

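No paired analysis was possible because the labels give the strains no shared replicate numbers. No result reversed under any setting tried. Of 36 single-gene results past the threshold, 25 lost it in at least 1 setting and 11 in none: the 3 of Bckdhb against B6, Amdhd1 in NZO against B6 and 129P2, and the F-tests of Gpt2, Hpd, Kmo, Amdhd1, Bckdhb and Bhmt. F-tests had 30 settings and pairs 32, since the fit of only the compared strains and the test against a fold of 1.2 were run on pairs only. The test against a fold of 1.2 ended all calls between strains except those of Bckdhb against B6 and of Amdhd1 in NZO against B6 and 129P2. The calls between strains of Gpt2, Hpd, Kmo and Bhmt were thus lost there, although their F-tests are counted as lost in none. The numbers of members called moved as follows, and the cause was not tested. With array weights they were 18 over the 4 strains, and 16, 4 and 12 for NZO against B6, C3H and 129P2, where the other catabolism genes over the strains came to 31. With array spread as a covariate they were 2, 4 and 11 for the NZO comparisons in the same order, 2 for C3H minus B6 and 5 for C3H minus 129P2. Against a minimum fold of 1.2 they were 2, 0, 1, 1, 1 and 0 (NZO minus B6, C3H and 129P2, C3H and 129P2 minus B6, C3H minus 129P2). Equal array medians gave 1 for NZO minus C3H and 1 for C3H minus 129P2, and another quantile normalization gave 10 for NZO minus B6, split into 2 higher and 8 lower in NZO, beside 2 and 3 in the reported fit; either shifted the median of all genes by at most -0.05. With only the compared strains in the fit NZO minus B6 held 3. Without the 3 narrowest arrays NZO minus B6 held 2 and C3H minus B6 held 3.

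When each animal was left out in turn, the count over the 4 strains ran from 7 (without NZO 2, NZO 3 or B6 4) to 15 (without NZO 1). NZO minus B6 ran from 2 (without NZO 2, NZO 3 or B6 4) to 14 (without NZO 1), NZO minus C3H from 2 to 4 (without NZO 1), NZO minus 129P2 from 6 to 10, C3H minus B6 from 1 (without B6 4 or C3H 3) to 8, 129P2 minus B6 from 3 to 4, C3H minus 129P2 from 1 (without C3H 3, 4 or 5 or 129P2 1 or 3) to 4, and the other catabolism genes from 14 to 22. The number of arrays limits what could be seen in genes that varied within strains, such as Got1 and Prodh.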

Other observations

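Genes of amino acid and ammonium transport, at the cell membrane or in mitochondria, differed between the strains as well. Of 27 tested genes of this list, which includes the mitochondrial carbonic anhydrase Car5a and carriers such as Slc25a22, 9 differed over the 4 strains (33.3%, beside 17% of all genes; 11, or 40.7%, with array spread as a covariate). Rhbg, an ammonium transporter known from the pericentral rim, was higher in NZO by 1.10 than in B6, by 0.97 than in C3H and by 0.96 than in 129P2 (SE 0.138; limma's adjusted p = 7.61e-06, 4.52e-05 and 4.7e-05). Slc3a1, the partner of a cystine and dibasic amino acid exchanger, was higher in NZO by 1.08, 0.74 and 1.10. Slc7a2, which takes up arginine, lysine and ornithine, was lower in NZO (-1.11, -0.62 and -0.64; adjusted p = 1.76e-05, 0.00979 and 0.00624). Slc38a4, which takes up neutral amino acids, was lower by log2 differences of -0.43, -0.35 and -0.24, and Slc16a10, a carrier of aromatic amino acids, by -0.42, -0.38 and -0.47. Slc43a3 was lower by -0.71, -0.53 and -0.53. It is listed beside Slc43a1 and Slc43a2, and it is not shown here to carry amino acids. Each of these genes passed the threshold in all 3 NZO comparisons, also with the covariate. Slc6a9, a glycine transporter, was set apart in C3H, where it was lowest (NZO minus C3H 0.93).

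Of 24 tested genes listed with the regulators of amino acid breakdown, 6 differed over the strains (25%, beside 17% of all genes), and 7 with the covariate. The list also holds the enzymes Pck1 and G6pc and the genes Fkbp5, Per1 and Tsc22d3, which are not themselves regulators of this breakdown. Pck1 is among the 6, so the share is not one of regulators alone. NZO was lower than B6 in 4 (16.7%, beside 10.3% of all genes), namely Pck1, listed for its shared control (-0.80, adjusted p = 0.0174), the coactivator Ppargc1a (-0.56, 0.0252), Klf15, a factor known to induce amino acid catabolic enzymes (-0.43, 0.00534), and Crtc2 (-0.34, 0.0272). The first 2 of these lost the call with array spread as a covariate (0.0527 and 0.116). NZO differed from 129P2 in 6 (25%, beside 8.9% of all genes), with Nr1i3 at -1.32, Ppargc1a at -0.62, Cebpa at -0.45, Klf15 at -0.45 and Crtc2 at -0.32, and Foxa3 higher by 0.74 (adjusted p = 0.0013, 0.0138, 0.0312, 0.00422, 0.0398 and 0.000926). Against C3H 0 passed limma's test, beside 6.6% of all genes. An unadjusted p under 0.05 was seen in 8, but the share of all genes under that limit was not counted, so no difference is read from it.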
